A study of Mus musculus with 7 samples.

Results

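The Hox genes encode homeodomain transcription factors and lie in 4 clusters, HoxA on chromosome 6, HoxB on chromosome 11, HoxC on chromosome 15 and HoxD on chromosome 2 of the mouse genome. The genes described here were chosen by a symbol of Hoxa, Hoxb, Hoxc or Hoxd followed by a number, with antisense transcripts left out. This rule used no measured value. It matched 39 of the 27179 genes in the count tables, of which 38 are described, 10 in HoxA, 10 in HoxB, 9 in HoxC and 9 in HoxD, whatever their counts.

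RNA-seq was carried out on 7 cell lines derived from end-stage lymphomas of male C57BL/6 mice that carried the Eµ-Myc transgene, a Myc gene under an immunoglobulin heavy chain enhancer that gives B cell lymphomas. The 3 wild-type lines had intact Smchd1, which encodes a chromatin protein of the SMC family. The 4 Smchd1 null lines were homozygous for a gene trap allele by the labels, and are called Smchd1 MD1/MD1 in the study's methods. All 7 lines therefore shared the transgene and differed in Smchd1. Wild-type replicate 1 was batch 1 and was read single-end, and the other 6 libraries were batch 2 and were read paired-end, so batch 1 held no null line and the batch, the read layout and this line cannot be told apart. Nothing in the labels says that the lines of a group came from separate mice, and p-values measure the spread between these samples. The question the series addresses is which genes depend on Smchd1 in these lymphoma cells.

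Hox proteins bind DNA mostly together with TALE homeodomain cofactors of the Pbx, Meis and Pknox families, and their combinations set position along the body axis in the embryo. Genes at the same place in different clusters are paralogues and share a number, from group 1 at the 3′ end of a cluster to group 13 at the 5′ end. Trithorax-type complexes, which contain MLL and menin, keep Hox genes active, and Polycomb complexes keep them silent. In blood, HoxA and HoxB genes are transcribed in stem and progenitor cells and are largely turned down as B cells mature, and Hoxa9 with Meis1 is a well known driver pair in acute leukaemia. SMCHD1 is known for silencing genes on the inactive X chromosome, imprinted genes and clustered gene families.

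Total counts ranged from 3626853 in wild-type replicate 1 to 7519549 in null replicate 4. A level of 3 counts, taken here as the least that calls a gene detected, was 0.827 CPM (a count divided by the total of its library and put on 1 scale) in the former and 0.399 CPM in the latter. Smchd1 itself was between 218.7 and 248.1 CPM in the wild-type lines and between 22.65 and 28.73 CPM in the null lines, which was 11.39% of the wild-type mean (p = 0.02857 by a two-sided exact permutation test, as small as 3 against 4 can give). Null replicate 4 stood apart from the other lines in the sums of B cell, progenitor and endothelial markers. It had 960 counts of Flt3 and 448 of Hlf, both progenitor genes, against 7 to 45 and 0 to 6 elsewhere. The 7 B cell markers summed to 512.4 CPM in it and to between 975.5 and 1593 CPM in the others. Cd79a, Cd22, Pax5, Ebf1 and Blnk were lowest in it. Cd79b (302.9 CPM against 262.4 to 444.4 CPM) and Ms4a1 (0.7979 CPM against 0 to 12.82 CPM) were not. The 8 stem and progenitor markers summed to 187.5 CPM against 2.317 to 18.75 CPM. Of these, Kit, Cd34, Gata2 and Mecom were at 0 in every library. Tal1 was not raised (0.266 CPM against 0.2962 to 6.066 CPM), and Mycn was at 0 in null replicate 4. The 6 endothelial markers summed to 223.4 CPM against 47.7 to 95.97 CPM, with 3 of them detected in it and 2 in each other line. Pecam1 alone made up 219 CPM of that sum, and Tek was at 3.059 CPM against 0 to 0.1606 CPM. Cdh5 was not raised (1.33 CPM against 1.285 to 3.584 CPM), and Kdr, Tie1 and Vwf were at 0 in every library. Wild-type replicate 1 alone had mesenchymal markers detected, with 10.2 CPM over the 8 markers against 0 to 0.266 CPM. These were the collagen genes Col1a1 (20 counts), Col1a2 (14) and Col3a1 (3). Pdgfra, Pdgfrb, Dcn, Lum and Twist1 were at 0 in that line. In bulk RNA, fewer cells of a type and less RNA per cell cannot be told apart.

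Wild-type replicates 2 and 3 were the closest of the 21 pairs of libraries. Their counts differed by more than sampling noise, with a chi-square per degree of freedom of 3.957 over genes against 18.13 to 70.81 for the other pairs. Such a difference cannot show whether they came from separate lymphomas, since repeat preparations of 1 line can also differ by more than counting noise. Wild-type replicates 2 and 3 were counted as 2 samples by their labels. In the linear model used for the tests, these lines received sample weights of 3.785 and 3.059, and wild-type replicate 1 and null replicate 4 received 0.2458 and 0.2492.

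The Hox genes stood at low levels in these lymphoma lines, and many had no read. Of the 38 genes, 15 had no read in any library, 3 reached only 1 or 2 counts, and 20 were detected in at least 1 library, which is 52.63% beside 52.53% of all 27179 genes. Hoxb4 and Hoxb13 were the only Hox genes detected in all 7 libraries. There were 13 genes with 10 or more counts in some library, namely Hoxa4, Hoxa7, Hoxa9, Hoxb3, Hoxb4, Hoxb5, Hoxb6, Hoxb7, Hoxb9, Hoxb13, Hoxc4, Hoxd3 and Hoxd4. On a per-length scale, the highest Hox gene of 6 libraries was between 1.808 and 4.546 RPKM (CPM per kilobase of gene length), below the median of 8.63 to 9.38 RPKM of the genes with a read in those libraries. In null replicate 4 it was Hoxc4 at 23.94 RPKM, and 3984 genes of that library were higher.

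**Figure D1:**
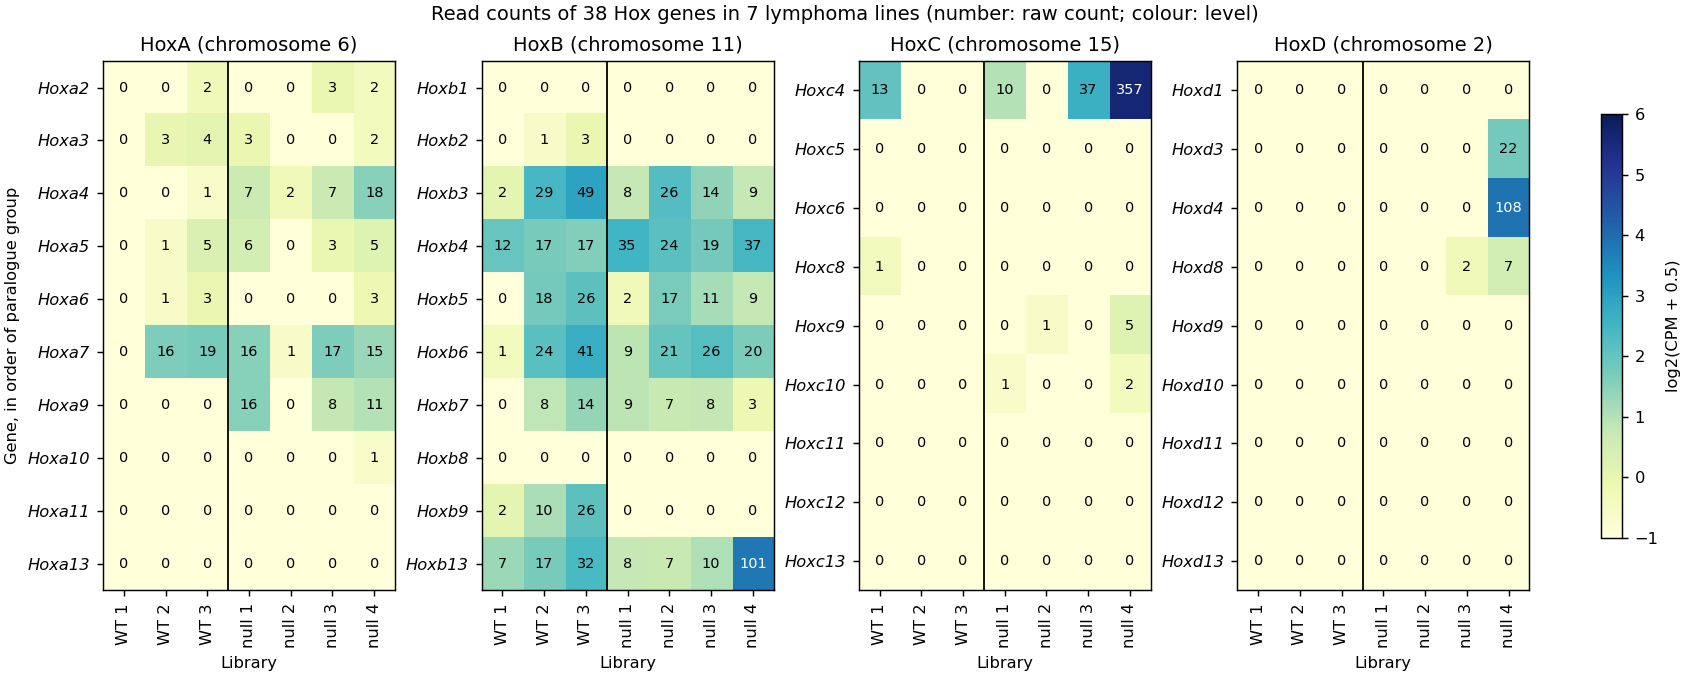
Raw counts (numbers) and levels as log2(CPM + 0.5) (colour) of the 38 Hox genes, with a panel for each cluster, genes from the lowest to the highest paralogue group on the vertical axis and the 7 libraries on the horizontal axis. HoxB holds most of the filled cells, Hoxb9 is filled in the wild-type columns alone, and null replicate 4 holds the darkest cells, Hoxc4 with 357 counts and Hoxd4 with 108.

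The 4 clusters differed in how much of them was transcribed. HoxB had 8 of its 10 genes detected, HoxA 7 of 10, HoxD 3 of 9 and HoxC 2 of 9. HoxB also held most of the summed Hox level in every line except null replicate 4. It summed to 6.617, 20.34 and 30.49 CPM in wild-type replicates 1 to 3, and to 10.51, 16.38, 13.59 and 23.8 CPM in null replicates 1 to 4. HoxA in turn summed to 0, 3.445 and 4.983 CPM in the wild-type lines and to 7.109, 0.4819, 5.869 and 7.58 CPM in the null lines. Wild-type replicate 1 thus had not a single read of the 10 HoxA genes, and null replicate 2 had 3 in all, while the other 5 lines had between 3.445 and 7.58 CPM. HoxC reached 48.41 CPM and HoxD 18.22 CPM in null replicate 4, with at most 5.715 and 0.3089 CPM elsewhere.

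**Figure D2:**
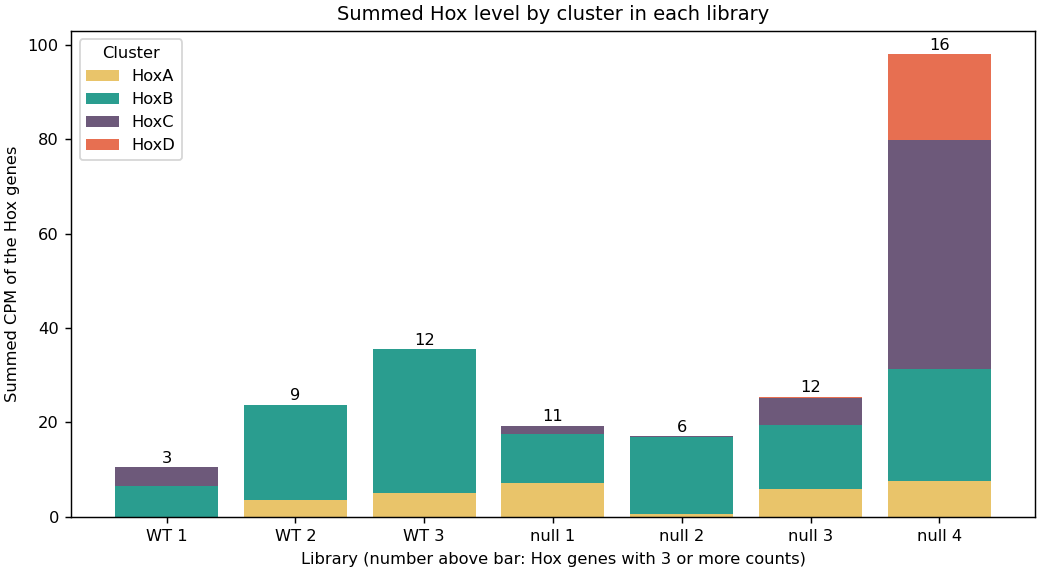
Summed CPM of the Hox genes of each cluster (stacked bars, vertical axis) in each of the 7 libraries (horizontal axis), with the number of Hox genes detected at 3 or more counts above each bar. The sum reaches 98.01 CPM in null replicate 4, the other 6 libraries lie between 10.48 and 35.47 CPM, and HoxB makes up most of the sum in those 6.

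Detection also differed by position within the clusters. Groups 1 to 9 held 26 of the genes, of which 19 were detected, and groups 10 to 13 held 12, of which Hoxb13 alone was detected and 9 had no read. Paralogue group 4 was the only group with all 4 members detected in 1 library, null replicate 4, where Hoxa4 had 18 counts, Hoxb4 37, Hoxc4 357 and Hoxd4 108. Among the group 9 genes, no library had both Hoxa9 and Hoxb9 detected, since Hoxb9 reads came from wild-type lines and Hoxa9 reads from null lines.

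The start-site windows of Hoxb4, Hoxc4 and Hoxd4 are shown because Hoxb4 was detected in every line and its paralogues Hoxc4 and Hoxd4 reached the highest CPM of the family, in null replicate 4, and that of Hoxa9 because its reads came from null lines alone. Each runs from 250 bases before to 50 after the start in RefSeq (GRCm38.p6) and is written 5′ to 3′ on the strand of the gene, with CG dinucleotides, the sites of DNA methylation, in capitals.
Hoxb4, chr11:96318017-96318316, plus strand: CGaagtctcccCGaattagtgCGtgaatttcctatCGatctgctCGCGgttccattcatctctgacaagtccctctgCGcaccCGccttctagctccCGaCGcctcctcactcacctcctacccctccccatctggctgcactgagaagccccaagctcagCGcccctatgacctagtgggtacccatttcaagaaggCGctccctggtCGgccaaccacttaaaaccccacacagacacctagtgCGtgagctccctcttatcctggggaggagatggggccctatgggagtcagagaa
Hoxc4, chr15:103034145-103034444, plus strand: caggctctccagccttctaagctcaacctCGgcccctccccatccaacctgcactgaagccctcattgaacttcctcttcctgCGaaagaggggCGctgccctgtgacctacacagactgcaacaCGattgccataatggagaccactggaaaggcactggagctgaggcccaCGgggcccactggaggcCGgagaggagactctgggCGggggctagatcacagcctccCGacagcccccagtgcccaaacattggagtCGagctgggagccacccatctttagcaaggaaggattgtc
Hoxd4, chr2:74721728-74722027, plus strand: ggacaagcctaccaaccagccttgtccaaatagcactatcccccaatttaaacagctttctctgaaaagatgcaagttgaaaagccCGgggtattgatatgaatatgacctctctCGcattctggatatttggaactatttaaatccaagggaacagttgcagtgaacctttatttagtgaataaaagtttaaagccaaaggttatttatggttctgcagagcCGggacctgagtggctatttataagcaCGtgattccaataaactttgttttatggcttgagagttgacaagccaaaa
Hoxa9, chr6:52227321-52227620, minus strand: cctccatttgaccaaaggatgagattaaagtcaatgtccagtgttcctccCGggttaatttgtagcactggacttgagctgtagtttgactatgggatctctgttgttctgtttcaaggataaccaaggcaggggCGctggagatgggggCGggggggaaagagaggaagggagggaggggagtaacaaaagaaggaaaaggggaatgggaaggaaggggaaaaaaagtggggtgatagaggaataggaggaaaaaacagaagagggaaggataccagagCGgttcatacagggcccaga

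The Hoxb4 window held 14 CG dinucleotides, that of Hoxc4 held 9, and those of Hoxd4 and Hoxa9 held 4 each. The Hoxc4 window lies at a start inside the gene, which runs from 103018097 to 103036856 on chromosome 15. RefSeq gave 24 such windows for 22 of the Hox genes, with a median of 14.5 CG against 7 over all 32851 windows. The Myc-type E-box CACGTG was in 20.83% of the Hox windows and 7.15% of all, the Pbx-Hox motif TGATNNAT in 16.67% and 8.846%, TATAAA, the TATA box, in 16.67% and 13.62%, and CCAAT in 62.5% and 37.41%, searched on both strands with overlap allowed. Of the windows shown, that of Hoxd4 held the E-box and CCAAT, and TATAAA on the strand opposite to the gene only. That of Hoxc4 held CCAAT. These matches describe the letters of the windows and were not tested against the levels.

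In HoxB, the cluster with the most detected genes, Hoxb3, Hoxb5 and Hoxb6 were lowest in wild-type replicate 1 and highest in wild-type replicate 3, with the null lines between. Hoxb3, a homeodomain factor of the hindbrain and of early blood cells, had 0.5514, 4.757 and 7.182 CPM in wild-type replicates 1 to 3 and 1.185, 4.176, 2.162 and 1.197 CPM in null replicates 1 to 4. Hoxb5, known in blood as a marker of long-term stem cells, had 0, 2.952 and 3.811 CPM against 0.2962, 2.731, 1.699 and 1.197 CPM. Hoxb6 had 0.2757, 3.937 and 6.009 CPM against 1.333, 3.373, 4.016 and 2.66 CPM. For each of the 3 genes the groups therefore overlapped. Hoxb7 followed the same order among the wild-type lines, with 0, 1.312 and 2.052 CPM, and had 1.333, 1.124, 1.236 and 0.399 CPM in the null lines. None of the 4 was called by limma, with log2 fold changes, null minus wild-type, of -1.24 for Hoxb3 (false discovery rate, FDR, 0.171), -1.25 for Hoxb5 (FDR 0.304), -0.77 for Hoxb6 (FDR 0.362) and -0.42 for Hoxb7 (FDR 0.631). All 4 estimates were above 0 without wild-type replicate 3. At the depth of wild-type replicate 1, a count of 0 allows up to 0.827 CPM (3 counts). Of the exonic bases of Hoxb3, 52.93% lie opposite the antisense gene Hoxb3os, and the library kit does not mark strand, so reads of that pair cannot be told apart.

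Hoxb4, which promotes self-renewal of blood stem cells when raised, had the smallest ratio of highest to lowest CPM of the 13 genes. It had 3.309, 2.788 and 2.492 CPM in the wild-type lines (2.863 ± 0.4136, mean ± SD, n = 3) and 5.183, 3.855, 2.935 and 4.921 CPM in the null lines (4.223 ± 1.033, n = 4). The groups overlapped through null replicate 3, which lay below wild-type replicate 1. The log2 fold change was 0.58 (standard error, SE, 0.2644) with an FDR of 0.172 in limma, and it passed the threshold of 0.05 in none of the 19 other ways in which the data were fitted.

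Hoxb9, a posterior HoxB gene at chr11:96271330-96276595 on the plus strand (GRCm38.p6), was read in the wild-type lines alone. It had 2, 10 and 26 counts in wild-type replicates 1 to 3, or 0.5514, 1.64 and 3.811 CPM, and 0 in each of the 4 null libraries. The groups did not overlap, although wild-type replicate 1 was under the 3 counts that call a gene detected and a count of 0 in the null libraries allows up to 0.399 to 0.4819 CPM. Pooled over the lines of each group, there were 38 counts in the wild-type lines against 0 in the null lines. With 3 counts over the 4 null libraries as the floor, the pooled null level was at least 20.65-fold lower. This pooled value takes in no spread between lines, and 26 of the 38 counts came from wild-type replicate 3. It was called lower by limma with sample weights at a log2 fold change of -4.99 (SE 0.8438, FDR 0.014), a size that depends on how the fit treats 0.

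The call of Hoxb9 held in 10 of 18 other fits and was lost in 8. The FDR was 0.0326 with DESeq2, 0.0184 without wild-type replicate 1, 0.0289 without null replicate 4 and 0.0432 without both of these lines. It was 0.571 without wild-type replicate 2, 0.521 without wild-type replicate 3, 0.0572 without null replicate 1 and 0.0694 without null replicate 2, all with limma. It was also 0.224 with the edgeR quasi-likelihood test and 0.143 with voom in limma without sample weights. The sign was negative in each of these fits. Calls over all genes numbered 1466 in the reported fit and 1 without wild-type replicate 2 or 3. They numbered 443 without null replicate 1 and 281 without null replicate 2, so these losses were not particular to Hoxb9.

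Hoxb13, the 5′ end gene of HoxB at chr11:96194316-96196610 on the plus strand and known for its role in prostate, was detected in every line. It had 1.93, 2.788 and 4.69 CPM in the wild-type lines and 1.185, 1.124, 1.545 and 13.43 CPM in the null lines. Null replicates 1 to 3 lay below all 3 wild-type lines, and null replicate 4, with 101 counts, lay above them all. The log2 fold change was -1.20 in limma with sample weights (FDR 0.161), which gave null replicate 4 a weight of 0.2492, and 0.43 with edgeR (FDR 0.906) and 0.44 with DESeq2 (FDR 0.939). Hoxb1 and Hoxb8 had no read in any library, and Hoxb2 had 1 and 3 counts in wild-type replicates 2 and 3 and none elsewhere.

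**Figure D3:**
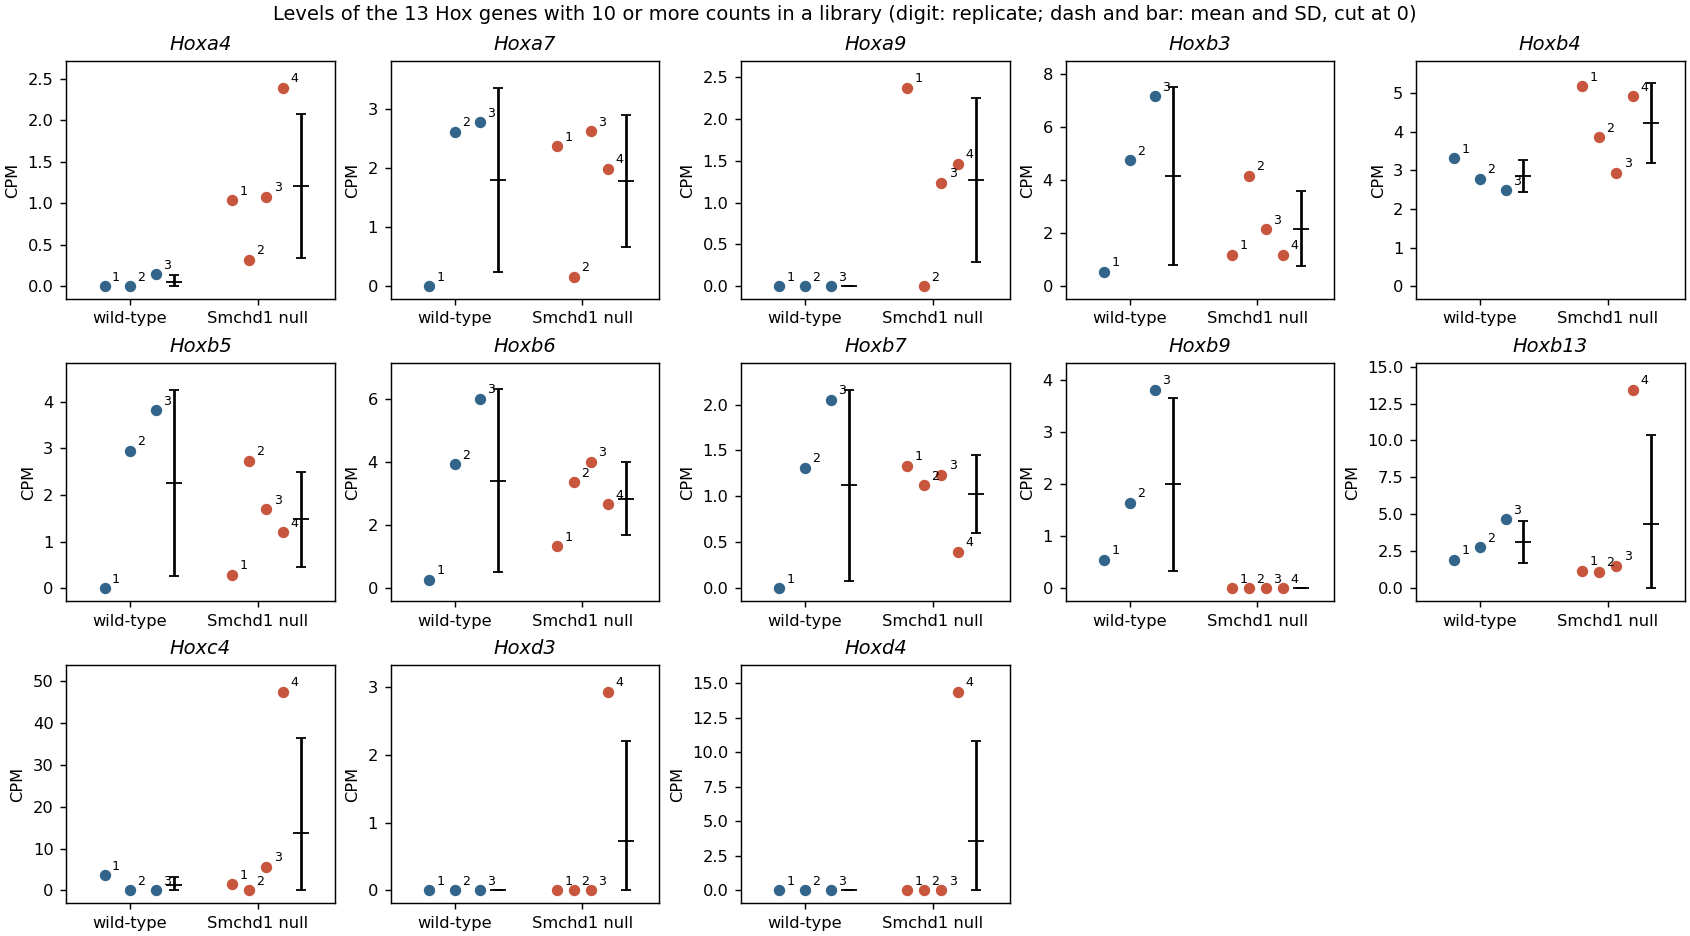
CPM (vertical axes, each with its own range) of the 13 Hox genes with 10 or more counts in a library, by genotype, with a point for each line, the replicate number beside it, and the mean and SD of the group (SD bars end at 0). Hoxa4 and Hoxb9 are the genes whose groups do not overlap. Null replicate 4 stands above every other line for Hoxa4, Hoxb13, Hoxc4, Hoxd3 and Hoxd4.

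In HoxA, reads came mainly from Hoxa4, Hoxa7 and Hoxa9. Hoxa4, at chr6:52189682-52191703 on the minus strand, had 0, 0 and 1 count in the wild-type lines and 7, 2, 7 and 18 counts in the null lines, or 1.037, 0.3212, 1.081 and 2.394 CPM. Every null line was above every wild-type line, although null replicate 2 was under the 3 counts that call a gene detected. Pooled over the lines, the ratio of null to wild-type was 20.86 (exact 95% interval of counting error 3.499 to 847.8). This pooled value takes in no spread between lines, and 18 of the 34 null counts came from null replicate 4. The log2 fold change of Hoxa4 was 2.60 (SE 0.7075, FDR 0.0495 in limma), at the edge of the threshold. Of 18 other fits, the call held in 1, the fit of all genes with no filter on low counts (FDR 0.0398). It was lost within batch 2 (FDR 0.0772) and on leaving out any 1 of the 7 lines, with an FDR from 0.0507 without null replicate 2 to 0.924 without wild-type replicate 2. That last fit called 1 of all genes. The FDR was 0.0507 with another normalisation (relative log expression), 0.172 with DESeq2 and 0.259 with edgeR. An unstranded read may come from the opposite gene Gm29430, which covers 16.0% of the exonic bases of Hoxa4.

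Hoxa9, the leukaemia-associated member of the cluster, had no read in the 3 wild-type lines and 16, 0, 8 and 11 counts in null replicates 1 to 4, or 2.37, 0, 1.236 and 1.463 CPM. The groups overlapped through null replicate 2, which had none, as did the wild-type lines. Pooled over the lines of each group, 35 counts against 0 put the null level at least 7.157-fold higher, with 3 counts over the 3 wild-type libraries as the floor. This pooled value takes in no spread between lines and does not hold for null replicate 2. In limma, the estimate on the log2 scale was 2.63 (SE 1.169, FDR 0.164). Without null replicate 2 it was 4.36 (SE 0.5425, FDR 0.0153), and with edgeR and DESeq2 on all 7 lines the FDR was 0.355 and 0.238.

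Hoxa7 was at or near 0 in 1 line of each genotype. It had 0, 2.624 and 2.785 CPM in the wild-type lines and 2.37, 0.1606, 2.626 and 1.995 CPM in the null lines, so that wild-type replicate 1 and null replicate 2 were lowest and the other 5 lines lay between 1.995 and 2.785 CPM. The log2 fold change was -1.46 (FDR 0.295 in limma), and 0.15 with voom alone. Its neighbours Hoxa2, Hoxa3, Hoxa5 and Hoxa6 had at most 6 counts in any library. Hoxa10 had 1 count in all, and Hoxa11 and Hoxa13 had none.

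Hoxc4 showed the widest range of the family. It had 13, 0 and 0 counts in wild-type replicates 1 to 3 and 10, 0, 37 and 357 counts in null replicates 1 to 4. In CPM these were 3.584, 0 and 0 against 1.481, 0, 5.715 and 47.48, with an exact 95% Poisson interval of 42.68 to 52.67 CPM in null replicate 4. The gene was therefore detected in 1 of 3 wild-type and 3 of 4 null lines, and the groups overlapped. In null replicate 4 it held 48.44% of all Hox counts. The log2 fold change was 3.13 (SE 1.666) and was not past the threshold (FDR 0.235 in limma). Within batch 2, which leaves out the wild-type line with Hoxc4 reads, it was 3.31 (SE 1.779, FDR 0.243). The genes beside it, Hoxc5 and Hoxc6, had no read in any of the 7 libraries, and Hoxc8, Hoxc9 and Hoxc10 had at most 5 counts.

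HoxD was not detected in the wild-type lines, in which none of its 9 genes had a read. Hoxd4 had 108 counts in null replicate 4, or 14.36 CPM (exact 95% Poisson interval 11.78 to 17.34 CPM), and 0 in the other 6 libraries, where the limit of 3 counts was between 0.4397 and 0.827 CPM. Hoxd3 had 22 counts, or 2.926 CPM, in null replicate 4 and 0 elsewhere, and Hoxd8 had 2 and 7 counts in null replicates 3 and 4. These reads came almost wholly from 1 of the 4 null lines, and no fold change between the groups is given for them. Hoxd3 and Hoxd4 share exonic bases with each other (9.258% of those of Hoxd3) and with Gm28230 on the same strand, so reads between them are uncertain. The other 6 HoxD genes had no read.

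Null replicate 4 was the line in which Hoxa4, Hoxb13, Hoxc4, Hoxd3 and Hoxd4 were highest. It also had the lowest B cell marker sum, high Flt3 and Hlf, and 1849 counts of Kmt2a, which encodes MLL, against 420 to 888 elsewhere. The part of these differences in the Hox levels was not tested.

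Of the 38 Hox genes, 12 passed the filter of at least 0.5 CPM in 3 or more libraries and entered the tests of 12303 genes. The 2 calls, Hoxa4 higher and Hoxb9 lower, stood beside 5.06% of all genes tested called higher and 6.85% called lower, 11.9% in either direction. Hoxb9, Hoxa4 and Hoxa9 passed the filter only through the group in which they were high, so a difference was built into their entry, and the calls are no count over the family. The other 10 genes had FDRs from 0.161 to 0.769. The median log2 fold change of the 12 was -0.63 and that of all genes tested -0.01. Without the filter, Hoxb2 was also called lower (FDR 0.0354 in limma), on 4 counts in all.

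The edgeR quasi-likelihood test called none of the 12 Hox genes, with 3 at an unadjusted p under 0.05, and it called 0.0975% of all genes. DESeq2 called Hoxb9 alone, with 3 at an unadjusted p under 0.05, and 3.21% of all genes. Voom in limma without sample weights called none, with 2 at an unadjusted p under 0.05, and 0.0975% of all genes. By levels alone, of the 23 Hox genes with a read, 1 (Hoxa4) was higher in every null line than in every wild-type line and 1 (Hoxb9) lower in every null line. Over all genes with a read, these shares were 4.92% and 5.53%, so the number of such Hox genes was near the background.

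**Figure D4:**
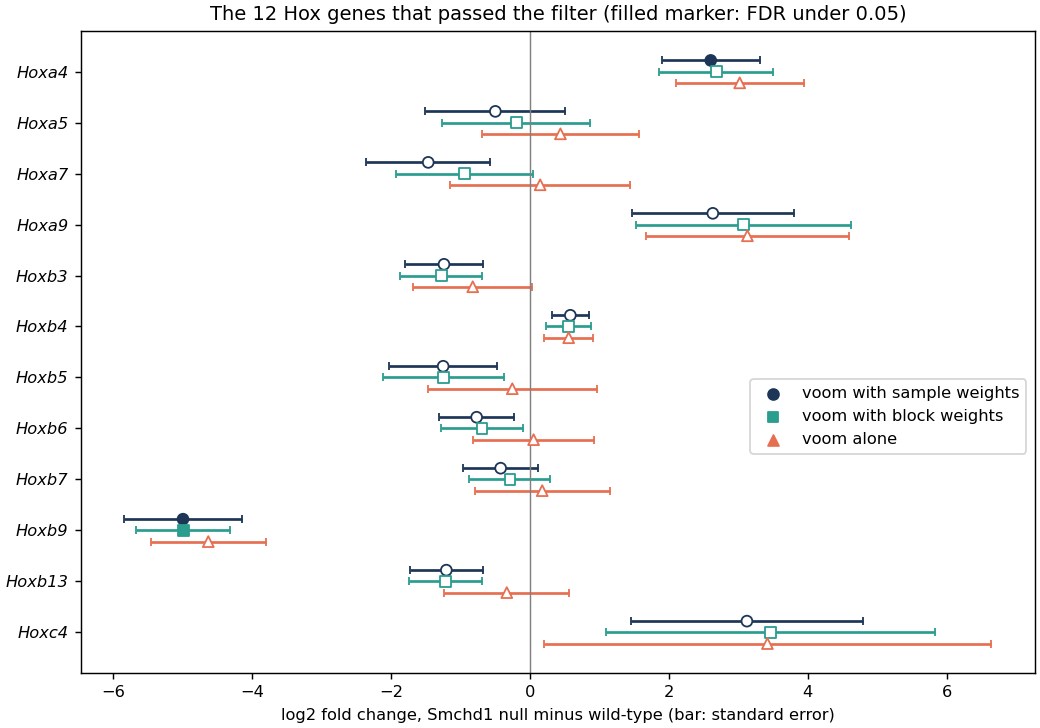
Log2 fold change with its standard error (horizontal axis, null minus wild-type) of the 12 Hox genes that passed the filter (vertical axis), by limma with a weight for each sample, with a weight for each block of samples, and with voom alone. Filled markers are FDRs under 0.05, which hold for Hoxa4 with sample weights and for Hoxb9 with sample or block weights, while the estimates of Hoxa5, Hoxa7, Hoxb6 and Hoxb7 lie on the other side of 0 with voom alone.

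All 9 TALE cofactors, with which Hox proteins bind DNA, were detected in some library, and 8 of them were tested. Meis1 was called higher in the null lines and Meis3 lower, or 25% of those tested against 11.9% of all genes in either direction. Meis1, a cofactor of Hoxa9 in leukaemia, had 0, 0 and 1 count in the wild-type lines and 13, 48, 30 and 73 counts in the null lines, or 1.925, 7.71, 4.634 and 9.708 CPM. The groups did not overlap, and the pooled ratio of null to wild-type was 100.6 (exact 95% interval of counting error 17.81 to 3998). Its log2 fold change was 5.23 (SE 0.8127, FDR 0.0122 in limma, 0.000555 in DESeq2 and 0.107 in edgeR), and like Hoxa4 it passed the filter through the null lines alone. The FDR was 0.862 without wild-type replicate 2, 0.78 without wild-type replicate 3 and 0.137 without wild-type replicate 1 and null replicate 4. Calls over all genes in these 3 fits numbered 1, 1 and 521. Null replicate 2, with no Hoxa9 read, thus had 48 counts of Meis1.

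Meis3 had 17.65, 8.857 and 7.328 CPM in the wild-type lines and 3.999, 1.767, 1.853 and 5.851 CPM in the null lines. All 4 null lines were below the wild-type lines. The log2 fold change was -1.70 (SE 0.3666, FDR 0.027 in limma), and the FDR was 0.0968 with DESeq2, 0.31 with edgeR, 0.673 without wild-type replicate 2 and 0.581 without wild-type replicate 3. The FDR was also above 0.05 without null replicate 1 (0.0579), 2 (0.103) or 3 (0.0623). Calls over all genes numbered 1 without wild-type replicate 2 or 3, and 443, 281 and 923 without null replicate 1, 2 and 3. The remaining 6 tested cofactors were not called, among them Pknox1 (57.07 to 109.4 CPM, log2 fold change 0.42, FDR 0.0855 in limma) and Pbx2 (40.64 to 61.76 CPM, -0.24, FDR 0.175), the genes at the highest CPM. Pknox2 had 43 counts in null replicate 4 and none elsewhere.

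**Figure D5:**
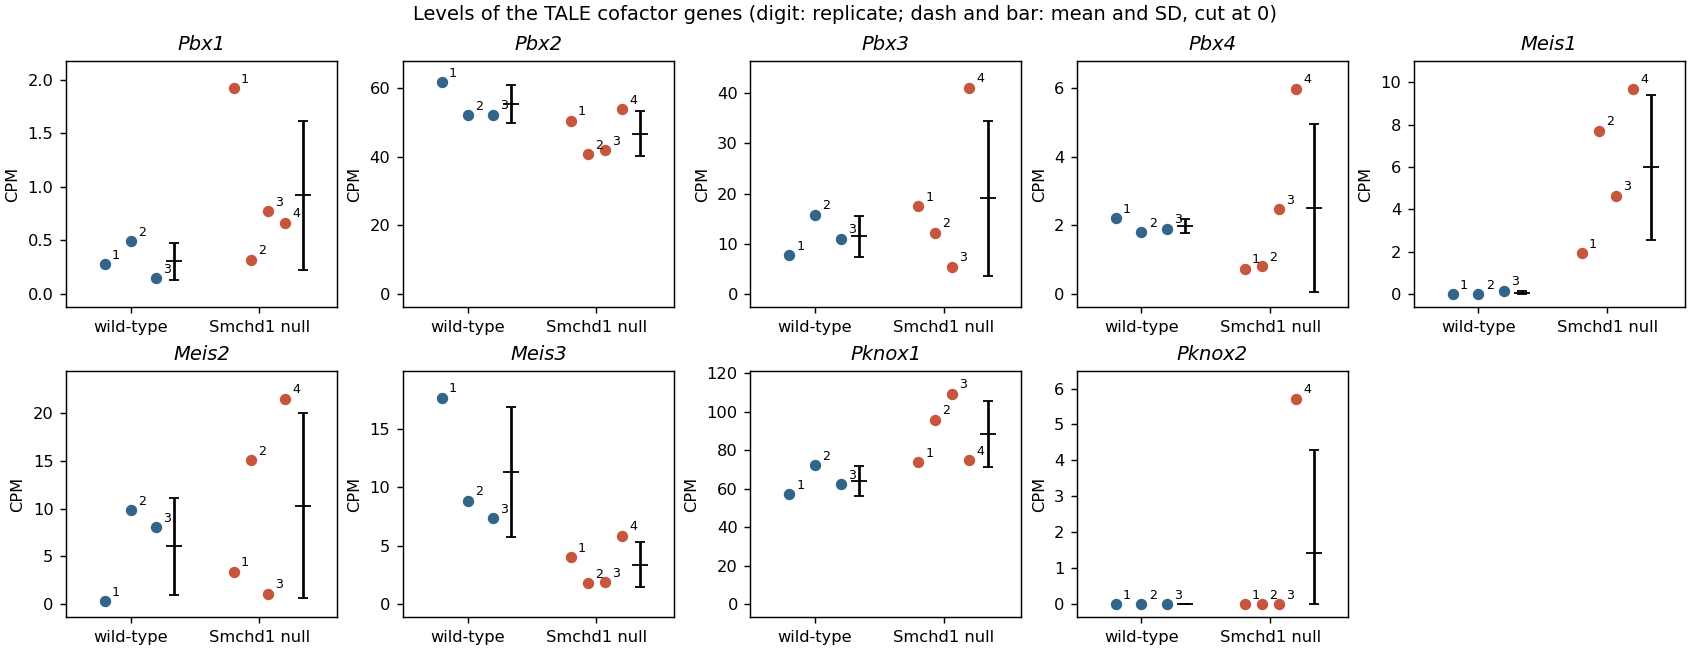
CPM (vertical axes, each with its own range) of the 9 TALE cofactor genes by genotype, with a point for each line, its replicate number, and the mean and SD of the group (SD bars end at 0). Meis1 lies at or near 0 in the wild-type lines and between 1.925 and 9.708 CPM in the null lines, and Meis3 is lower in every null line than in every wild-type line.

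The genes that keep Hox clusters active or silent were all transcribed. Of 19 MLL and trithorax-type genes, 3 were called lower and 0 higher by limma with sample weights, with 6 at an unadjusted p under 0.05. Over all genes tested, 6.85% were called lower and 5.06% higher, and 3908 of 12303 were at an unadjusted p under 0.05. The 3 were Men1, which encodes menin (log2 fold change -0.76, FDR 0.0335), Rbbp5, a core subunit of these methyltransferases (-0.41, FDR 0.0347), and Aff4, of the super elongation complex (-0.71, FDR 0.0373). Men1 was at 73.62, 198.8 and 196.1 CPM in the wild-type lines and at 109.7, 117.7, 104.6 and 128.9 CPM in the null lines. The groups of Men1 therefore overlapped through wild-type replicate 1. So did those of Rbbp5 (80.23 CPM against 69.42 to 82.48 CPM in the null lines) and Aff4 (118.3 against 85.38 to 154.9 CPM). Of 23 Polycomb subunits, 2 were called lower and 0 higher by the same fit, or 8.7% against 11.9% of all genes in either direction, with 8 at an unadjusted p under 0.05. These were Pcgf2, of PRC1 (-1.20, FDR 0.0482), and Rnf2, its ubiquitin ligase (-0.35, FDR 0.0453). Pcgf2 had 17.37, 18.21 and 13.48 CPM in the wild-type lines and 4.591, 8.673, 5.097 and 20.88 CPM in the null lines, with null replicate 4 above all others. None of these 5 was called by edgeR, DESeq2 or voom alone. Over these lists and the cofactors, the number of calls was 7, beside 1466 of all 12303 genes. It was 0 without wild-type replicate 2 or 3, 2 without null replicate 1 or 3, and 1 without null replicate 2. In the same fits, calls over all genes numbered 1 without wild-type replicate 2 or 3. They numbered 443, 281 and 923 without null replicate 1, 2 and 3.

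The genes related to the Hox genes or nearest to the clusters were also looked at. Of 13 ParaHox genes and close relatives, 12 had no read in any library, and Pdx1, a pancreatic ParaHox gene, had 169 counts in null replicate 4 and 1 in wild-type replicate 2. The 9 noncoding RNAs of the clusters that were in the tables had at most 3 counts. Of the 40 nearest genes outside the clusters, 5 on each side, 33 were detected and 30 tested. In limma 1 was called higher, Hnrnpa3 at 894119 bases from HoxD (log2 fold change 0.65, FDR 0.0206). Calcoco1, at 198953 bases from HoxC, was the 1 called lower (-1.43, FDR 0.0146). These were 6.67% of those tested, against 11.9% of all genes. Neither was called by edgeR, DESeq2 or voom alone, and neither passed the threshold without wild-type replicate 2, wild-type replicate 3 or null replicate 2, nor Hnrnpa3 without null replicate 1.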

How the data were processed

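Per the labels, libraries were made with the TruSeq RNA v2 kit, which does not keep strand. The study's methods state that the authors aligned the reads to mm10 with Subread and summarised them with featureCounts. The deposited tables hold raw counts per Entrez gene and library, with the gene length, and were neither normalised nor pooled. The submitters' processing notes also name CASAVA 1.8.2, edgeR 3.8.2 and limma 3.22.0. How multi-mapping reads were treated is not given in the sources used here, so counts of close paralogues are uncertain.

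CPM and RPKM were computed here from the total counts. The filter kept genes at 0.5 CPM or more in 3 libraries or more, TMM factors were computed, and limma 3.58.1 (voomWithQualityWeights, R 4.3.3) compared the groups with no covariate, with Benjamini-Hochberg FDR over 12303 genes. edgeR 4.0.16 and DESeq2 1.42.0 were alternatives. The fits were also run on simulated counts with the same dispersion in every line, so that run cannot speak for the sample weights used here. A call is an FDR under 0.05. Intervals and floors of 3 counts cover counting error only.

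The genes, lists and tests were chosen with earlier results of these data known. Named in full were Hox genes with 10 or more counts in a library or a call and, of the other lists, the called genes and those at the highest levels. A further gene that matches the rule, 1 in all, and 1 gene of the planned marker lists are not reported here. Symbols, windows and coordinates are from RefSeq on GRCm38.p6, the same build as mm10, and exon overlaps from GENCODE M21.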

Additional observations from a re-analysis of the deposited data

Results flagged for a closer look

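For each of the 13 Hox genes with 10 or more counts in a library, the 4 null lines were screened for a line far from the others by Dixon's test at 95%, which by chance flags about 1 in 20 groups. There were 4 flags, and each was null replicate 4. Hoxd3 and Hoxd4 entered the screen through the counts of that line alone, so their flags were fixed by the choice of genes and the chance rate does not apply to them. It had 47.48 CPM of Hoxc4 against 0 to 5.715 CPM in the other null lines, 14.36 CPM of Hoxd4 and 2.926 CPM of Hoxd3 against 0 CPM, and 13.43 CPM of Hoxb13 against 1.124 to 1.545 CPM. The same line had 43 counts of Pknox2 and 169 of Pdx1, both at 0 in the other null lines. The cause was not tested.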

How the results depend on the processing

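The log2 fold change of Smchd1 was between -3.23 and -3.02 in all fits. The call of Hoxa4 was lost, leaving 0 Hox genes called higher, under relative log expression, at least 10 counts in every sample, the batch covariate, edgeR with or without the filter, DESeq2, voom alone, block weights, sample removal (without wild-type replicate 1 and null replicate 4) and wild-type replicates 2 and 3 summed. Leaving out 1 line gave 0 to 1 higher and 0 to 1 lower. Hox genes called lower were 2 with no filter and 0 with at least 10 counts in every sample, edgeR with or without the filter, voom alone and the summed replicates. The filter of 10 counts in every sample keeps few Hox genes, and the cause of the other changes was not tested. Of the 20 detected Hox genes, 13 reached a minimum of 10 counts and 13 reached 1 CPM.

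All genes called were 1466 in the reported fit, 12 with edgeR, 8 with edgeR and no filter, 382 with DESeq2, 12 with voom alone, 493 with block weights, 521 with sample removal, 1 with the summed replicates and 1 to 1683 on leaving out 1 line, with 1 without wild-type replicate 2 or 3. Calls among cofactors, activators, Polycomb subunits and Hox relatives numbered 7, and 4 with no filter, 0 with edgeR with or without the filter, voom alone or summed replicates, 1 with DESeq2, block weights or sample removal, and 0 to 6 on leaving out 1 line. Neighbour calls numbered 2, and 4 with the batch covariate, 1 with block weights, 0 with edgeR with or without the filter, DESeq2, voom alone or summed replicates, and 0 to 4 on leaving out 1 line.

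With the replicate block, 0 Hox genes were called higher and 1 lower, and 222 of all genes, 2 of the related lists and 1 neighbour were called. The deviations of same-numbered lines from their group means correlated at -0.03 on average (3 pairs) and those of differently numbered lines at 0.02 (9 pairs). The 3 same-numbered pairs were at -0.1455, 0.2277 and -0.1845. Deviations from a group mean sum to 0 within the group, which pulls such averages toward 0. They therefore cannot show whether the numbers pair the lines.

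Log2 fold changes that changed sign were of genes not called in any fit. These were Hoxa5 (0.58 with edgeR, 0.62 with edgeR and no filter, 0.68 with DESeq2, 0.44 with voom alone, -0.70 to 0.72 on leaving out 1 line), Hoxa7 (0.15 with voom alone, -1.79 to 0.41 on leaving out 1 line), Hoxb3 (-1.70 to 0.21 likewise), Hoxb5 (0.20 summed, -1.62 to 0.82 likewise), Hoxb6 (0.053 with voom alone, 0.25 summed, -0.99 to 0.89 likewise), Hoxb7 (0.18 with voom alone, 0.72 summed, -0.54 to 1.29 likewise) and Hoxb13 (0.43 with edgeR, 0.44 with edgeR and no filter and with DESeq2). At these depths, levels under 0.399 to 0.827 CPM cannot be told from 0.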
